A study of Mus musculus with 6 samples.

Results

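Resident macrophages of the mouse heart that carry Lyve1, Folr2 or Timd4 made up 5055 of the 32761 cells kept from 6 droplet libraries of CD45+ cardiac cells. A cell counted as one of them when it had at least 200 detected genes, at most 10% of its UMIs (unique molecular identifiers, each standing for 1 captured transcript) from mitochondrial genes, at least 10 UMIs summed over C1qa, C1qb and C1qc, and at least 3 summed over Lyve1, Folr2 and Timd4. It also had to hold fewer than 4 UMIs over the interferon-induced genes Ifit2, Ifit3 and Rsad2, fewer than 2 over the division genes Mki67, Top2a and Birc5, fewer than 2 over the B-cell genes Cd79a and Cd79b, and 0 over the T-cell genes Cd3e, Cd3d and Cd3g. The cells were chosen by their measured UMIs of these 17 genes, so their levels are given as a description and carry no test.

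The hearts had received 12 Gy in a single fraction from a small-animal irradiator or a sham procedure, and CD45+ cells were collected at 28 days. There were 2 libraries from irradiated mice labelled STING KO, 2 from irradiated wild-type mice and 2 from sham wild-type mice, all labelled C57Bl6J, and no sham library of the knockout genotype. The knockout titles add "Tmem" to the strain, and Tmem173 is the gene symbol of STING in these files. The labels give no age, allele, batch or animal, so p-values measure the spread between libraries, which may be technical, and the labels do not say how many hearts were pooled in each. Of the resident macrophages, 930 and 854 came from the irradiated STING KO libraries, 400 and 778 from those of irradiated wild type, and 929 and 1164 from those of sham.

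Macrophages of this kind seed the heart largely before birth, and many renew themselves in place with little input from blood. They sit along vessels and between muscle cells, take up dead cells and debris through scavenger and phosphatidylserine receptors, and make complement C1q. Timd4 encodes such a phosphatidylserine receptor and is used as the mark of the long-lived resident cells, Lyve1 encodes a hyaluronan receptor and Folr2 a folate receptor. Monocytes that enter the heart after injury carry the chemokine receptor Ccr2 and can in time acquire resident markers. STING senses cyclic dinucleotides made by the enzyme cGAS on cytosolic DNA and starts the production of type I interferon, in which the transcription factor Irf7 amplifies the response, whereas p53 switches on its own targets after breaks in nuclear DNA.

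The gated cells carried macrophage genes from outside the gate in each library. The summed level of the 6 macrophage genes Adgre1, Csf1r, Cd68, Fcgr1, Mertk and Cx3cr1 lay between 2637 and 2876 CPM (counts of a gene per 1000000 UMIs of the summed cells). C1qa was detected in 99.9% to 100% of the cells, a share that the C1q gate sets. Detection of Folr2 and Lyve1 is also set in part by the gate. Folr2 was detected in 98.7% and 97.8% of the irradiated STING KO cells, and Lyve1 in 80.6% and 74.9%. Timd4, by contrast, was detected in less of the population, and its share differed between the groups as described below, so the 3 marker names describe the gate and not each cell. Median depth was 9678 and 9188.5 UMIs per resident macrophage in the irradiated STING KO libraries, 8373.5 and 6602 in irradiated wild type, and 6028 and 6257.5 in sham, and the resident sums held 3542237 to 9847782 UMIs per library. Any pair of libraries shared at most 1 barcode among resident macrophages and at most 30 among kept cells, the highest number being that of the 2 irradiated STING KO libraries.

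Markers of other cells were uneven between the libraries. Summed neutrophil markers reached 5012 CPM in the second sham library, above its macrophage sum of 2660 CPM, against 375 to 1489 CPM in the others, lymphatic endothelial markers 110 CPM in the second irradiated wild-type and the first sham library against 2.26 to 7.98 CPM in the others, and erythroid markers ran between 7.48 and 664 CPM. Cd3d and Cd3e stood at 0 by the gate. Cardiomyocyte markers summed to 111 and 107 CPM in irradiated STING KO, 122 and 103 CPM in irradiated wild type, and 162 and 164 CPM in sham. Tmem173 itself had 52.3 and 47.4 CPM in the libraries labelled STING KO, 53.9 and 54.4 CPM in irradiated wild type, and 49.6 and 42.6 CPM in sham. A tag near the 3′ end of a transcript does not see an alteration elsewhere in the gene, so this level checks nothing about the genotype label.

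Resident macrophages were a smaller part of the macrophages after irradiation of wild-type hearts. Among all cells past the C1q gate and the gates against interferon, division, B and T cells, they were 49.5% and 44.9% in irradiated STING KO, 34.3% and 42.5% in irradiated wild type, and 48.2% and 54.6% in sham. The 2 irradiated wild-type libraries lay below both sham libraries and below both knockout libraries. The mean difference was -13.0 percentage points between irradiated and sham wild type (38.4 ± 5.75% against 51.4 ± 4.48%, SD, n = 2 each) and 8.85 points between irradiated STING KO and irradiated wild type (47.2 ± 3.25% against 38.4 ± 5.75%, n = 2 each). The genes of the gates set these shares, which are given as a description with no test. Exact (Clopper-Pearson) 95% intervals, which cover counting error only, ran from 31.6% to 37.1% in the library with the fewest cells. The knockout difference depended on the processing. In 1 alternative, cells under 4000 UMIs were dropped and the others thinned to 4000 UMIs. This left 2661 of 4695 kept cells in the first sham library and 3971 of 5852 in the first irradiated STING KO library. The part of the dropped cells in the shares was not tested. The resident share was then 41.9% and 39.1% in irradiated STING KO, 31.8% and 41.6% in irradiated wild type, and 55.2% and 56.5% in sham. The 2 irradiated genotypes overlapped. They overlapped as well with the mitochondrial limit set at 5%, at 42.3% and 31.7% in irradiated STING KO against 29.1% and 38.6% in irradiated wild type.

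As a share of all kept CD45+ cells, resident macrophages made up 15.9% and 13.8% in irradiated STING KO, 11.5% and 12.3% in irradiated wild type, and 19.8% and 18.7% in sham. The difference between irradiated and sham wild type was -7.38 points. With the mitochondrial limit set at 5%, which kept 92 to 199 resident macrophages per library, the shares were 7.16% and 6.73% in irradiated wild type against 11.8% and 6.41% in sham, and the groups overlapped.

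**Figure D1:**
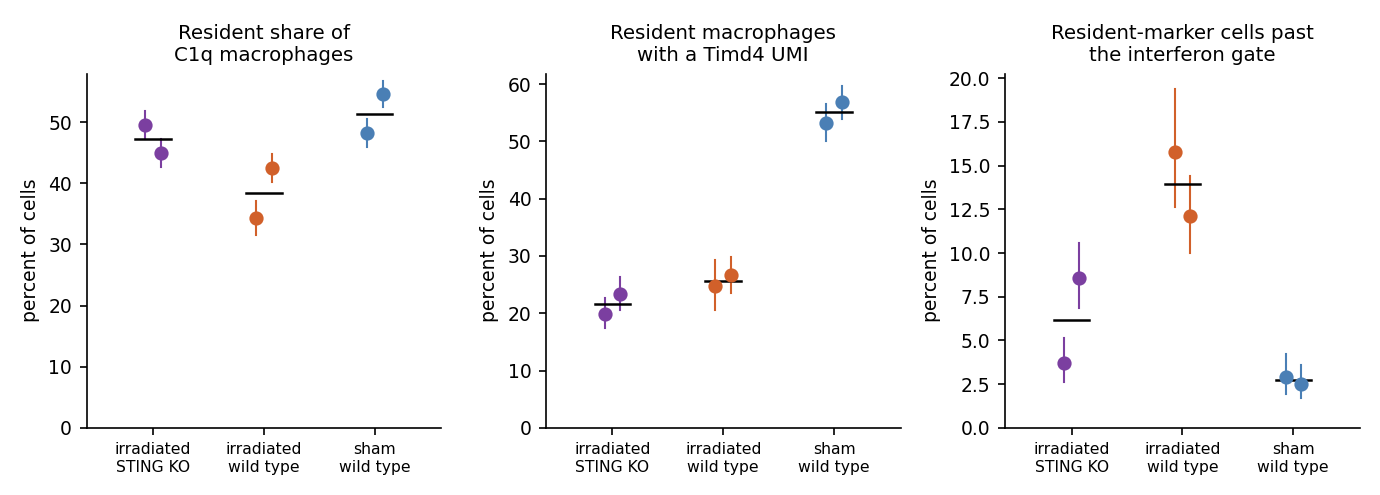
Percent of cells in each of the 6 libraries (points; bars are exact 95% binomial intervals, horizontal lines the mean of 2 libraries): resident macrophages among C1q macrophages, resident macrophages with a Timd4 UMI, and resident-marker macrophages with at least 4 UMIs over Ifit2, Ifit3 and Rsad2. The Timd4 share is 19.9% to 26.6% in the 4 irradiated libraries and 53.3% and 56.9% in sham.

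The make-up of the gate differed in Timd4, which was detected in 185 of 930 and 199 of 854 resident macrophages of the irradiated STING KO libraries (19.9% and 23.3%), in 99 of 400 and 207 of 778 of irradiated wild type (24.8% and 26.6%), and in 495 of 929 and 662 of 1164 of sham (53.3% and 56.9%). All 4 irradiated libraries lay below both sham libraries, although their cells were sequenced more deeply. At 4000 UMIs per cell the shares were 12.7% and 14.7% in irradiated STING KO, 17.7% and 20.6% in irradiated wild type, and 44.2% and 45.4% in sham. In B cells, which should lack the gene, 0.236% to 1.35% had a Timd4 UMI at median depths of 2623 to 5352 UMIs. The summed level of Timd4 was 50.1 and 79.4 CPM in irradiated STING KO, 75.4 and 117 CPM in irradiated wild type, and 165 and 187 CPM in sham.

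Lyve1 and Folr2 did not follow Timd4. Lyve1 had 781 and 738 CPM in irradiated STING KO, 661 and 922 CPM in irradiated wild type, and 728 and 879 CPM in sham, with overlapping groups. Folr2 had 1141 and 1119 CPM in irradiated STING KO, 1260 and 1307 CPM in irradiated wild type, and 1349 and 1300 CPM in sham. C1qa was between 6615 and 7288 CPM in the 6 libraries. The gate holds the sum of the 3 markers above a floor, so these levels are partly set by it.

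The edge of the gate was gradual. Cells with exactly 3 UMIs over Lyve1, Folr2 and Timd4, just inside, numbered 41 to 101 per library, and cells with exactly 2, just outside, 66 to 118. Cd163 had 83.5 and 119 CPM just inside in irradiated wild type and 382 and 287 CPM just inside in sham, beside 81.2 and 93.7 CPM and 331 and 296 CPM just outside. Ccr2 had 245 and 292 CPM just inside in irradiated wild type and 150 and 156 CPM in sham, beside 351 and 283 CPM and 93.5 and 181 CPM just outside.

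The first comparison asked what irradiation did to the transcripts of resident macrophages in wild-type hearts. Counts were summed over the resident macrophages of each library, and edgeR's quasi-likelihood test with Benjamini-Hochberg adjustment was run over all genes that passed a filter on low counts. At an adjusted p under 0.05, 38 of 11902 genes rose (0.319%) and 26 fell (0.218%), 0.538% in all, and 1616 had an unadjusted p under 0.05. The genes that rose included the monocyte receptor Ccr2, interferon-induced genes, among them Irf7, and p53 targets, among them Phlda3. Those that fell included scavenger and complement receptors of resident macrophages, among them Cd163, Vsig4 and Colec12. In sums of this kind, fewer cells of one type within the gate and less RNA per cell cannot be told apart. The count was 14 to 37 with a library left out, lowest without the second sham library, and 1 with the mitochondrial share held to 5%, which left 92 to 199 cells per library.

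Interferon-induced genes were higher in irradiated wild-type cells although the gate had removed the cells with most Ifit2, Ifit3 and Rsad2. Of the 62 interferon-stimulated genes tested outside the gate, 6 rose and 0 fell, and 60 had a log2 fold change above 0, with a median of 0.48 beside -0.01 over all 11902 genes. Irf7 had 37.3 and 49.4 CPM in irradiated STING KO, 142 and 132 CPM in irradiated wild type, and 41.1 and 37.5 CPM in sham. The irradiated wild-type libraries stood apart from the other 4, which overlapped (irradiated against sham wild type log2 fold change 1.80 ± 0.14 SE, adjusted p = 0.00353, edgeR). Bst2, whose product tetherin holds budding viruses at the cell surface, had 320 and 375 CPM in irradiated STING KO, 577 and 513 CPM in irradiated wild type, and 260 and 239 CPM in sham (1.12 ± 0.11, adjusted p = 0.0062). Ly6a, an interferon-induced surface antigen also known as Sca-1, had 28.9 and 23.7 CPM, 87.8 and 56.7 CPM, and 16.9 and 16.7 CPM in the same order of groups (2.08 ± 0.22, adjusted p = 0.0111). Its call was lost without either sham library.

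The other 3 interferon-stimulated genes that rose were Ms4a4c, Phf11b and Oas3, the last an oligoadenylate synthetase that answers double-stranded RNA. Oasl1, with 18.4 and 23.3 CPM in irradiated wild type against 8.29 and 10.4 CPM in sham (adjusted p = 0.073), did not pass. Outside the list, and named after their values were seen, Siglec1, a sialic-acid receptor of macrophages, and Lgals3bp rose with log2 fold changes of 0.98 ± 0.15 and 0.77 ± 0.10. With the interferon gate left out, 14 of 63 listed genes rose with a median of 1.00, where 65 of all 12091 genes tested rose, and Ifit1, Usp18, Isg20 and Ddx58 were then among them.

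The interferon gate was defined on 3 genes of this response, so the share it turned away is a description with no test. Of resident-marker macrophages that met every other criterion, 3.73% and 8.57% in irradiated STING KO held at least 4 UMIs over Ifit2, Ifit3 and Rsad2, against 15.8% and 12.1% in irradiated wild type and 2.93% and 2.51% in sham. Irradiated wild type lay above both other groups. At 4000 UMIs per cell the shares were 1.34% and 2.74%, 8.27% and 8.50%, and 1.39% and 1.01% in the same order, and the knockout and sham libraries overlapped. With the mitochondrial limit at 5% they were 1.97% and 11.4%, 15.6% and 8.87%, and 2.31% and 3.25%, and the knockout libraries overlapped both other groups. Of cells past the C1q and resident gates, the division gate turned away 9.66% and 12.9% in irradiated STING KO. It turned away 13.2% and 11.5% in irradiated wild type and 5.01% and 5.59% in sham, so the irradiated libraries lay above sham. That gate is a cut on raw UMIs, and resident macrophages of the irradiated libraries had the higher median depth. The share was not computed at 4000 UMIs per cell, and the part of depth in it was not tested.

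The core of the interferon-stimulated response element, GAAA followed by any 2 bases and a second GAAA, searched on both strands, was looked for from 250 bases before to 50 bases after the transcription start, in RefSeq promoters of build GRCm38.p6. It lay in the promoters of 1079 of 27025 genes (3.99%), in 372 of the 9287 tested genes with a promoter in the table (4.01%), in 27 of the 49 interferon-stimulated genes with one (55.1%), in 5 of 27 genes that rose after irradiation (18.5%) and in 2 of 16 that fell (12.5%). Besides the predicted gene Gm36161, the rising genes with the motif were Bst2, Oas3, Ifi208 and Phf11b. Stretches of 120 bases around the first match of each are shown because they are the risen genes of interferon type whose promoter holds these letters. They read 5′ to 3′ along the gene, with the motif in capitals, and come from chr8:71537533-71537652 (minus strand) for Bst2, chr5:120777665-120777784 (minus) for Oas3, chr1:173673557-173673676 (plus) for Ifi208 and chr14:59341311-59341430 (minus) for Phf11b.
Bst2: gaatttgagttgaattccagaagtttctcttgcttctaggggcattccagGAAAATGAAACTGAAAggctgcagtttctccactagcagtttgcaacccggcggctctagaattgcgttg
Oas3: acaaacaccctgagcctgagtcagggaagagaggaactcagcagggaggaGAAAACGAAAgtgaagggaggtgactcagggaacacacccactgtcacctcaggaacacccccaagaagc
Ifi208: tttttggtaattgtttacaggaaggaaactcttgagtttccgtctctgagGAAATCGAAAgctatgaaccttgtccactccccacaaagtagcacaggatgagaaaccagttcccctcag
Phf11b: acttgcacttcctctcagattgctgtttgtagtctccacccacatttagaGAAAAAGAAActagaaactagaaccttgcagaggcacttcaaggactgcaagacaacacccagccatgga

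The capitals of Bst2 hold 2 overlapping matches, the first at 130 bases before the start, and those of Oas3, Ifi208 and Phf11b begin 75, 58 and 50 bases before it. The Irf7 window held no match, which says only that these letters are not in this window. Ifi208, a p200-family gene named for its motif, had 6.7 and 7.71 CPM in irradiated STING KO, 17.2 and 15.3 CPM in irradiated wild type, and 6.8 and 5.77 CPM in sham, a pattern across the 6 libraries like that of Irf7. Oas3 had 8.83 and 12.8 CPM, 18.4 and 16 CPM, and 6.46 and 5.15 CPM in the same order.

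Targets of p53 formed the second group. Of 29 tested, 4 rose and 0 fell, with a median log2 fold change of 0.26. Over all 11902 genes tested, 38 rose (0.319%) and the median was -0.01. Phlda3, a p53 target that restrains the kinase Akt, had 38.4 and 30.4 CPM in irradiated STING KO, 54.2 and 55.6 CPM in irradiated wild type, and 15.9 and 13.1 CPM in sham. Unlike Irf7, it was above sham in both irradiated genotypes (irradiated against sham wild type 1.92 ± 0.15, adjusted p = 0.00353). Gdf15, a stress-induced hormone of the TGF-beta family, had 144 and 119 CPM, 198 and 241 CPM, and 81.2 and 80.2 CPM in the same order (1.44 ± 0.13, adjusted p = 0.0050). Bax, which opens the mitochondrial membrane in apoptosis, had 204 and 203 CPM, 216 and 233 CPM, and 133 and 133 CPM (0.75 ± 0.08, adjusted p = 0.0123), and Zmat3, an RNA-binding p53 target, 23.2 and 21.2 CPM, 23.7 and 24.9 CPM, and 12.4 and 8.34 CPM (1.24 ± 0.18, adjusted p = 0.0379). With a library left out, Phlda3 stayed called in 6 of 6 fits, Gdf15 in 5, Bax in 3 and Zmat3 in 1, and the log2 fold changes of Bax and Zmat3 ran from 0.70 to 0.80 and from 0.98 to 1.52. The cell-cycle inhibitor Cdkn1a had 527 and 733 CPM in irradiated wild type and 373 and 451 CPM in sham and did not pass (adjusted p = 0.186); it is named here after its values were seen. Of 28 genes of replication and the cell cycle, the D cyclins Ccnd1 and Ccnd2 rose, by 0.68 ± 0.10 and 0.66 ± 0.10. Both calls rested on all 6 libraries and were lost without any 1 of them.

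**Figure D2:**
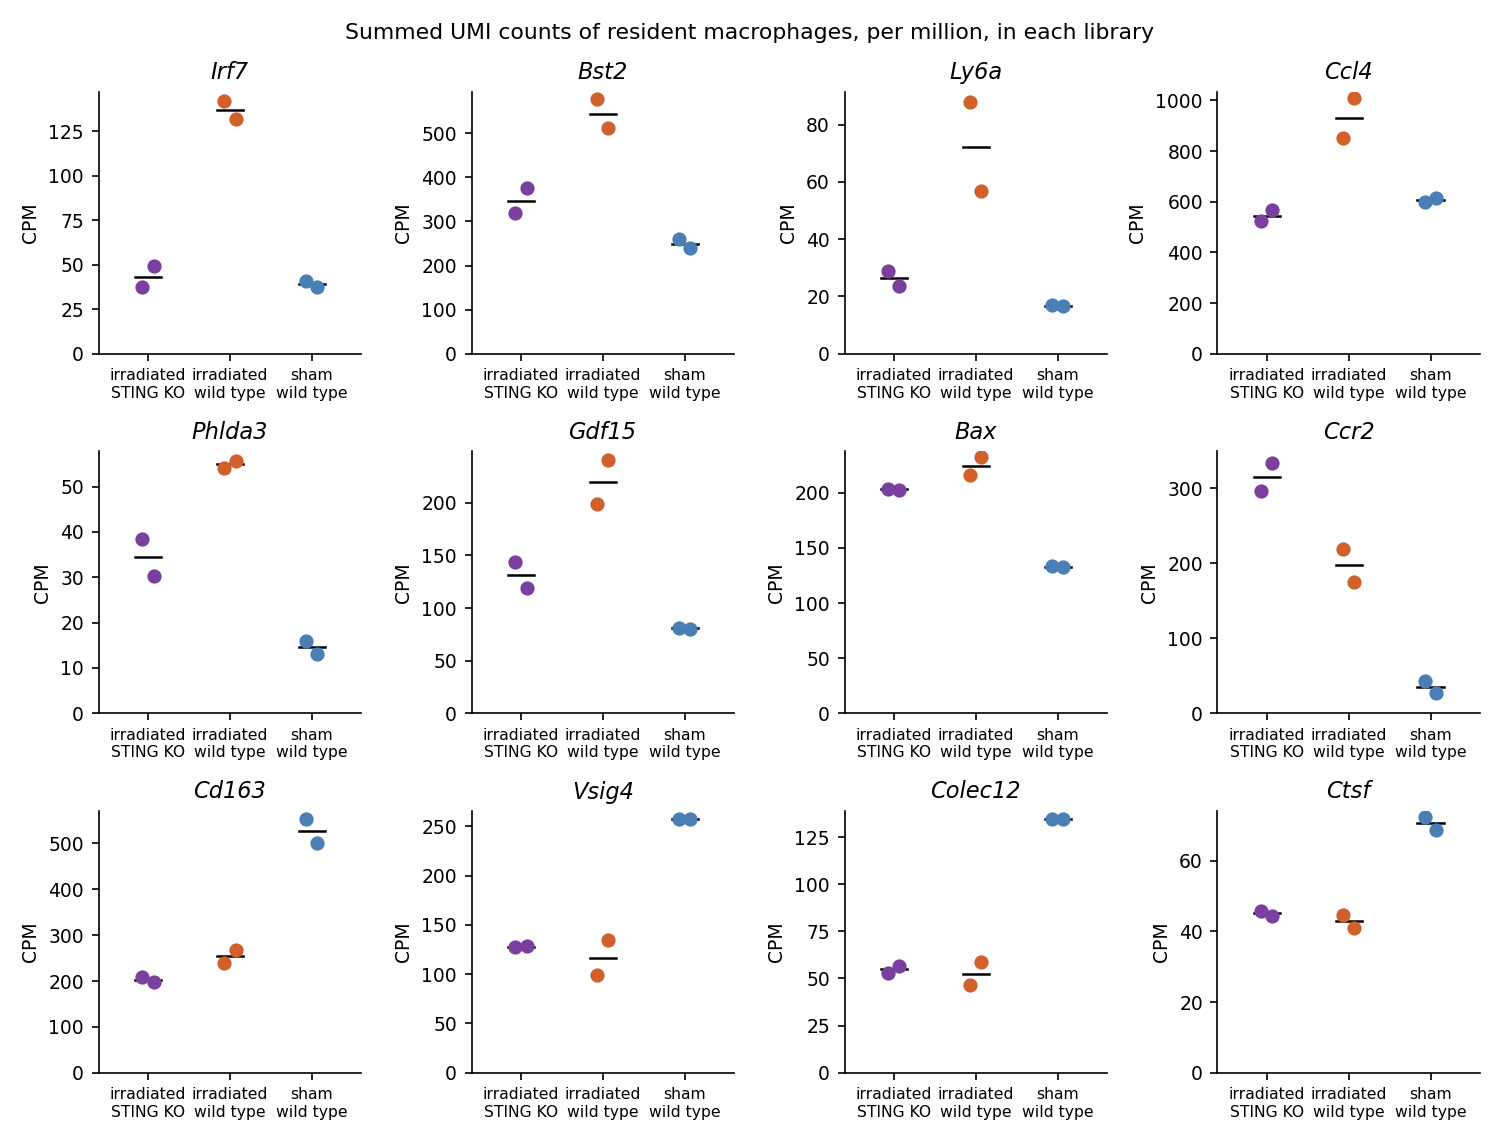
Levels in CPM of 12 genes in the summed resident macrophages of each library (points; horizontal lines are means of 2 libraries; each panel starts at 0). Irf7, Bst2, Ly6a and Ccl4 are highest in irradiated wild type, Phlda3, Bax and Ccr2 are above sham in all 4 irradiated libraries, and Cd163, Vsig4, Colec12 and Ctsf are below sham in all 4.

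Ccr2, the receptor that brings monocytes out of bone marrow and into inflamed tissue, also rose. It had 297 and 334 CPM in irradiated STING KO, 220 and 175 CPM in irradiated wild type, and 43.3 and 26.9 CPM in sham, and all irradiated libraries lay above both sham libraries (irradiated against sham wild type 2.50 ± 0.21, adjusted p = 0.00436). A Ccr2 UMI was seen in 40.1% and 42.4% of resident macrophages in irradiated STING KO, 33.5% and 29.4% in irradiated wild type, and 5.71% and 4.38% in sham; at 4000 UMIs per cell the shares were 34% and 38.3%, 28.2% and 25.2%, and 5.65% and 3.47%. In B cells 7.76% to 15% had one, more than in sham resident macrophages, and the part of free RNA in the sham level, on which the fold change rests, was not tested. Of the 24 monocyte-derived genes 3 rose and 0 fell, with a median of 0.19: Ccr2, Ms4a4c, which the interferon list holds too, and Tmsb10, an actin-binding peptide (1.05 ± 0.15, adjusted p = 0.0315, called in 1 of 6 fits with a library left out). The monocyte genes Ly6c2 and Chil3 did not pass: Ly6c2 had 1.41 and 6.93 CPM in irradiated wild type against 6.46 and 9.82 CPM in sham, and Chil3 5.08 and 3.2 CPM against 15.2 and 13.5 CPM.

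Among the rest that rose, Cfb, the factor B protease of the alternative complement pathway, had 68 and 92.6 CPM in irradiated wild type against 26.9 and 24.8 CPM in sham (1.64 ± 0.25, adjusted p = 0.0379). Fcgr1, the high-affinity IgG receptor, rose by 0.60 ± 0.09 and Ccl4, an inflammatory chemokine, by 0.62 ± 0.10 (adjusted p = 0.0426 and 0.047). Fcgr1 and Ccl4 lost their calls without any 1 of the 6 libraries, with log2 fold changes of 0.53 to 0.67 and 0.49 to 0.73, and Cfb without any 1 of the 4 wild-type libraries, with 1.40 to 1.84. Gdf3, a TGF-beta-family ligand, had 16.7 and 14.6 CPM against 3.65 and 1.35 CPM (2.70 ± 0.35, adjusted p = 0.0258). Olfm1, Emb and the predicted genes Gm21188 and Gm36161 rose too, Olfm1 staying called in 2, Emb in 1 and Gdf3 in 2 of the 6 fits that left out a library. Antigen presentation genes lay above 0 together without a call: all 11 class II genes, with a median of 0.44, and all 20 class I genes, with a median of 0.40, had positive log2 fold changes and none passed, H2-D1 coming to 0.48 ± 0.09 (adjusted p = 0.0815). Summed class II levels overlapped, at 35820 and 24496 CPM in irradiated wild type against 27566 and 18300 CPM in sham. Those of class I did not, at 13651 and 11695 CPM against 9776 and 8669 CPM.

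Of the 30 resident-identity genes outside the gate, 3 fell and 0 rose, with a median of -0.22 and 6 above 0. The 3 were the receptors Cd163, Vsig4 and Colec12. Cd163, the receptor that clears haemoglobin bound to haptoglobin, had 208 and 198 CPM in irradiated STING KO, 240 and 268 CPM in irradiated wild type, and 553 and 501 CPM in sham (irradiated against sham wild type -1.06 ± 0.09, adjusted p = 0.00436). Vsig4, a complement receptor for C3 fragments, had 127 and 129 CPM, 98.8 and 135 CPM, and 258 and 257 CPM in the same order (-1.14 ± 0.13, adjusted p = 0.0161), and Colec12, a scavenger receptor with a collectin domain, 52.8 and 56.7 CPM, 46.3 and 59 CPM, and 134 and 134 CPM (-1.35 ± 0.12, adjusted p = 0.0050). The 4 irradiated libraries lay below both sham libraries for all 3 genes. Ctsf, the lysosomal protease cathepsin F, had 45.8 and 44.3 CPM, 44.6 and 41 CPM, and 72.4 and 68.6 CPM (-0.73 ± 0.09, adjusted p = 0.0265). With a library left out, Cd163 and Colec12 stayed called in 6 of 6 fits. Vsig4 lost its call without either sham library, with log2 fold changes of -1.38 to -0.94 over the 6 fits, and Ctsf without any 1 library, with -0.78 to -0.66.

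Selenop, a selenium carrier, had 3626 and 3682 CPM in irradiated wild type and 5106 and 4603 CPM in sham and did not pass (adjusted p = 0.0511). Of 20 macrophage transcription factors, 19 tested efferocytosis genes and 18 lipid-associated genes, 0 passed in either direction, with medians of -0.01, -0.10 and -0.04. The further named genes that fell were Tcim, Xlr, P3h2, Maoa, Adam33, Gzma and Ccl5, of which Tcim and Gzma stayed called in 6 of 6 fits with a library left out, P3h2 and Ccl5 in 3, Maoa in 2, Xlr in 1 and Adam33 in 0. Gzma and Ccl5, a granule protease and a chemokine of cytotoxic lymphocytes, had 12.4 and 8.88 CPM and 33.6 and 25.6 CPM in irradiated wild type, against 47.6 and 53 CPM and 82.2 and 111 CPM in sham. Of resident macrophages, 1 and 3 held at least 3 Gzma UMIs in irradiated wild type and 11 and 16 in sham, and with marked doublets removed the log2 fold changes were -0.57 and -0.06 with adjusted p = 0.829 and 0.976. Gzmb, Nkg7 and Klre1, further lymphocyte genes among the 26 that fell, lost their calls too, with log2 fold changes of -0.87 ± 1.09, -0.10 ± 0.85 and -1.55 ± 0.82.

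**Figure D3:**
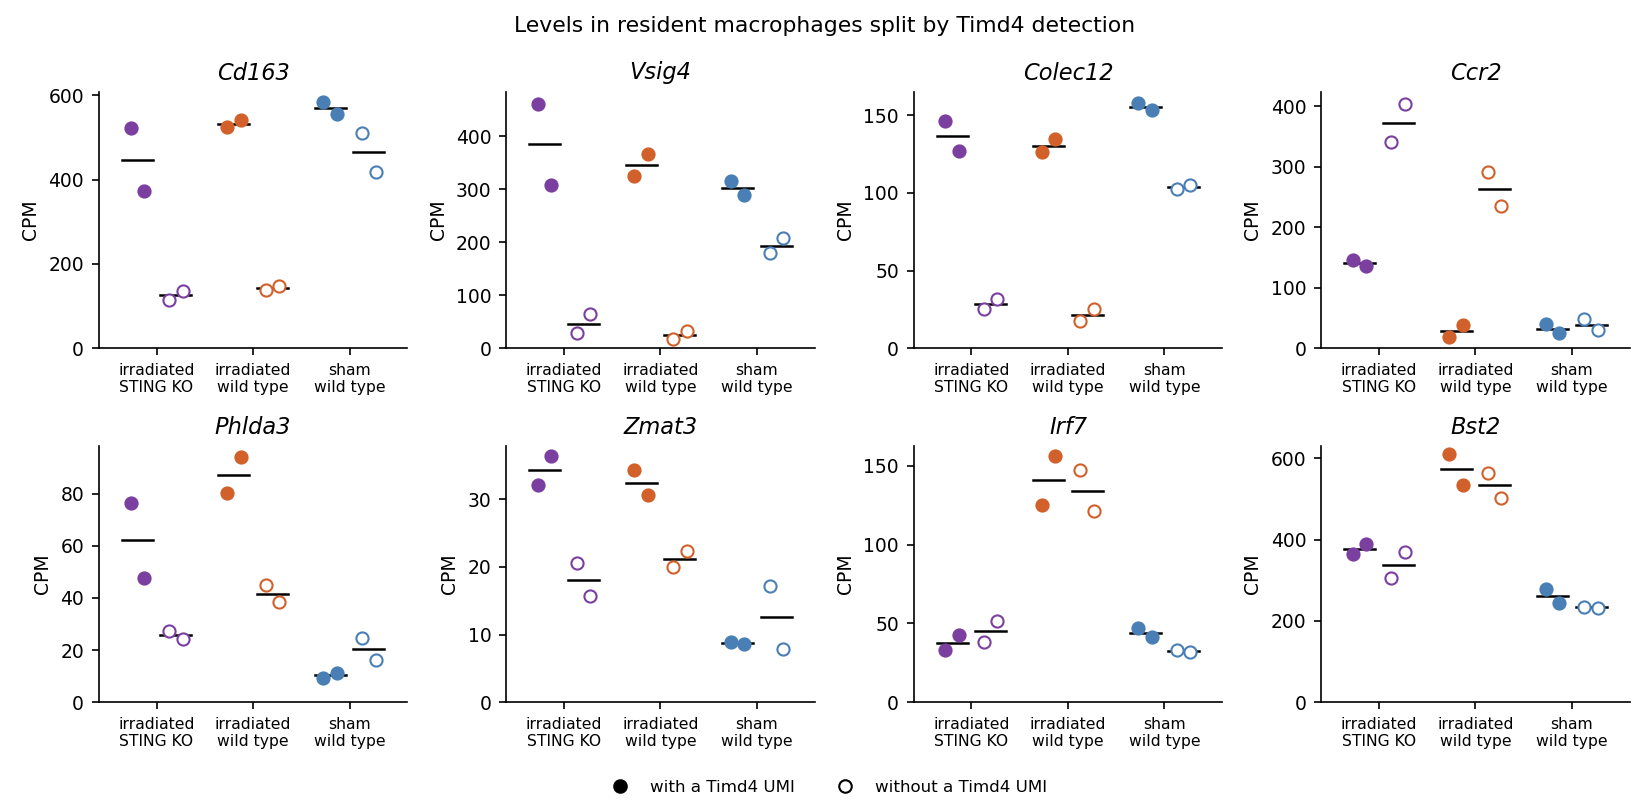
Levels in CPM in each library, for resident macrophages with a Timd4 UMI (filled) and without one (open); horizontal lines are means of 2 libraries and each panel starts at 0. Cd163, Vsig4 and Colec12 are low and Ccr2 is high in irradiated cells without Timd4, Phlda3 and Zmat3 are highest in irradiated cells with Timd4, and Irf7 and Bst2 are highest in irradiated wild type in both strata.

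Since fewer resident macrophages carried Timd4 after irradiation, the cells were split by Timd4 detection, a split made after the values were known. Timd4 is a gate gene and its detection moves with group and depth, cells without a Timd4 UMI may carry the transcript undetected, and the difference between the strata was not tested, so the values are a description with no test. In cells with Timd4, Cd163 had 522 and 372 CPM in irradiated STING KO, 524 and 540 CPM in irradiated wild type, and 584 and 555 CPM in sham. In cells without it, Cd163 had 115 and 136 CPM, 138 and 147 CPM, and 510 and 418 CPM in the same order. So irradiated cells without Timd4 were far below sham cells without Timd4, whereas irradiated wild-type cells with Timd4 lay near those of sham. The log2 fold change between irradiated and sham wild type was -0.15 ± 0.14 with Timd4 and -1.67 ± 0.12 without (SE, edgeR).

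Vsig4 had 461 and 309 CPM in irradiated STING KO, 326 and 366 CPM in irradiated wild type, and 315 and 289 CPM in sham in cells with Timd4, and 28.8 and 64.4 CPM, 17.6 and 31.8 CPM, and 179 and 207 CPM in cells without. Its log2 fold changes between irradiated and sham wild type were 0.14 ± 0.17 and -2.90 ± 0.39. For Colec12 they were -0.31 ± 0.12 and -2.21 ± 0.18. Ccr2 had 19.3 and 38.1 CPM in irradiated wild-type and 40 and 25 CPM in sham cells with Timd4, against 291 and 236 CPM and 47.7 and 29.8 CPM in those without. Its log2 fold changes were -0.12 ± 0.30 and 2.81 ± 0.21. Irradiated STING KO cells with Timd4 had 146 and 136 CPM of Ccr2, above those of irradiated wild type.

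Among the p53 targets, Phlda3 had 76.4 and 47.8 CPM in irradiated STING KO, 80.3 and 94.1 CPM in irradiated wild type, and 9.49 and 11.1 CPM in sham in cells with Timd4. In cells without it, the values were 27.2 and 24.2 CPM, 44.9 and 38.5 CPM, and 24.7 and 16.3 CPM. The log2 fold changes between irradiated and sham wild type were 3.02 ± 0.25 with Timd4 and 1.06 ± 0.20 without. Zmat3 gave 1.81 ± 0.20 and 0.83 ± 0.32, Bax 0.89 ± 0.11 and 0.63 ± 0.10, and Gdf15 1.44 ± 0.22 and 1.16 ± 0.12. Irf7 came to 1.64 ± 0.17 with Timd4 and 2.07 ± 0.18 without, and Bst2 to 1.08 ± 0.11 and 1.22 ± 0.12. Cells with Timd4 numbered 99 to 662 per library and cells without it 301 to 745. H2-Aa, a class II gene, was lower in cells with Timd4 in each library, at 2018 to 4414 CPM against 3556 to 7363 CPM without.

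The second comparison asked how irradiated STING KO cells differed from irradiated wild-type cells. By edgeR's quasi-likelihood test 8 of 11902 genes were higher (0.0672%) and 7 lower (0.0588%), 0.126% in all, at an adjusted p under 0.05, and 1547 had an unadjusted p under 0.05. The split moved with the processing: 31 were higher and 123 lower by DESeq2, 18 and 78 by edgeR at 4000 UMIs per cell, and 4 and 40 without the first irradiated wild-type library. Irf7 was lower in the knockout libraries, at the sham level given above (irradiated STING KO against irradiated wild type -1.75 ± 0.14, adjusted p = 0.00511). Of the 62 interferon-stimulated genes it was the only one to pass, while 4 had a log2 fold change above 0 and the median was -0.37, beside -0.00236 over all genes. Ly6a came to -1.53 ± 0.20 (adjusted p = 0.0503), Bst2 to -0.74 ± 0.10 (adjusted p = 0.0553), and Cxcl10, an interferon-induced chemokine, with 65.9 and 87.6 CPM in irradiated STING KO against 237 and 165 CPM in irradiated wild type, to -1.47 ± 0.24 (adjusted p = 0.0745). DESeq2 called 11 of 63 lower and 0 higher.

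Of 21 chemokine genes 1 was lower and 0 were higher. The 1 was Ccl4, with 522 and 568 CPM in irradiated STING KO, 853 and 1008 CPM in irradiated wild type, and 598 and 613 CPM in sham (-0.86 ± 0.10, adjusted p = 0.0321), and the list's median was -0.57. Egr2, the called member of the macrophage transcription factor list, had 36.8 and 40.2 CPM against 68.9 and 81 CPM in irradiated wild type (-1.06 ± 0.12, adjusted p = 0.0332). Both stayed called in 3 of 6 fits with a library left out. Of 25 NF-kB and inflammatory genes and 24 immediate early and dissociation genes 0 passed, with medians of -0.41 and -0.48, Tnf coming to -0.89 ± 0.12 (adjusted p = 0.0538). Dissociation genes also answer to the handling of tissue, and the part of handling was not tested. None of 29 p53 targets passed, with a median of -0.23, Phlda3 coming to -0.76 ± 0.14 (adjusted p = 0.0964) and Gdf15 to -0.84 ± 0.12 (adjusted p = 0.0623). Of the 30 resident-identity genes 0 passed either, with a median of -0.03, Cd163 coming to -0.42 ± 0.09 (adjusted p = 0.143).

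Several other genes called between the genotypes had like levels in irradiated and sham wild type. Slc39a1, a zinc importer, had 102 and 110 CPM in irradiated STING KO, 43.8 and 52.2 CPM in irradiated wild type, and 47.6 and 45.8 CPM in sham (1.04 ± 0.11, adjusted p = 0.0169, called in 3 of 6 fits with a library left out). Gm10076 had 238 and 241 CPM, 1143 and 961 CPM, and 900 and 1013 CPM in the same order, and G530011O06Rik 17.9 and 25.4 CPM, 94 and 143 CPM, and 81.4 and 77.8 CPM. AY036118 and Gm42418, whose counts can be shared with near-identical copies, were higher in the knockout libraries, by 1.97 ± 0.16 and 1.25 ± 0.13. Aldh1a3, a retinoic-acid-making enzyme named here after its values were seen, had 25.5 and 26.8 CPM in irradiated STING KO against at most 0.565 CPM in any wild-type library. With no sham knockout library, the effect of the genotype without irradiation cannot be told apart from its effect after irradiation.

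Xist was also higher in the knockout libraries (613 and 669 CPM against 398 and 370 CPM in irradiated wild type, 0.65 ± 0.08, adjusted p = 0.0476), a call lost without any 1 library. Each library held resident macrophages with Xist and no Y-linked UMI and others with the reverse, so each mixed cells of both sexes. The first kind were 55.9% and 62.1% of these in irradiated STING KO, 47.8% and 51.1% in irradiated wild type, and 52.9% and 50.8% in sham. Among cells with Xist only and with Y-linked UMIs only, the irradiated STING KO against irradiated wild type log2 fold change of Irf7 was -1.51 and -1.86 (adjusted p = 0.0255 and 0.0095). Timd4 was detected in 30.1% and 31.8% of Xist-only cells in irradiated wild type against 58.4% and 60.4% in sham, and in 19.3% and 19.8% against 47% and 58.9% of cells with Y-linked UMIs only.

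**Figure D4:**
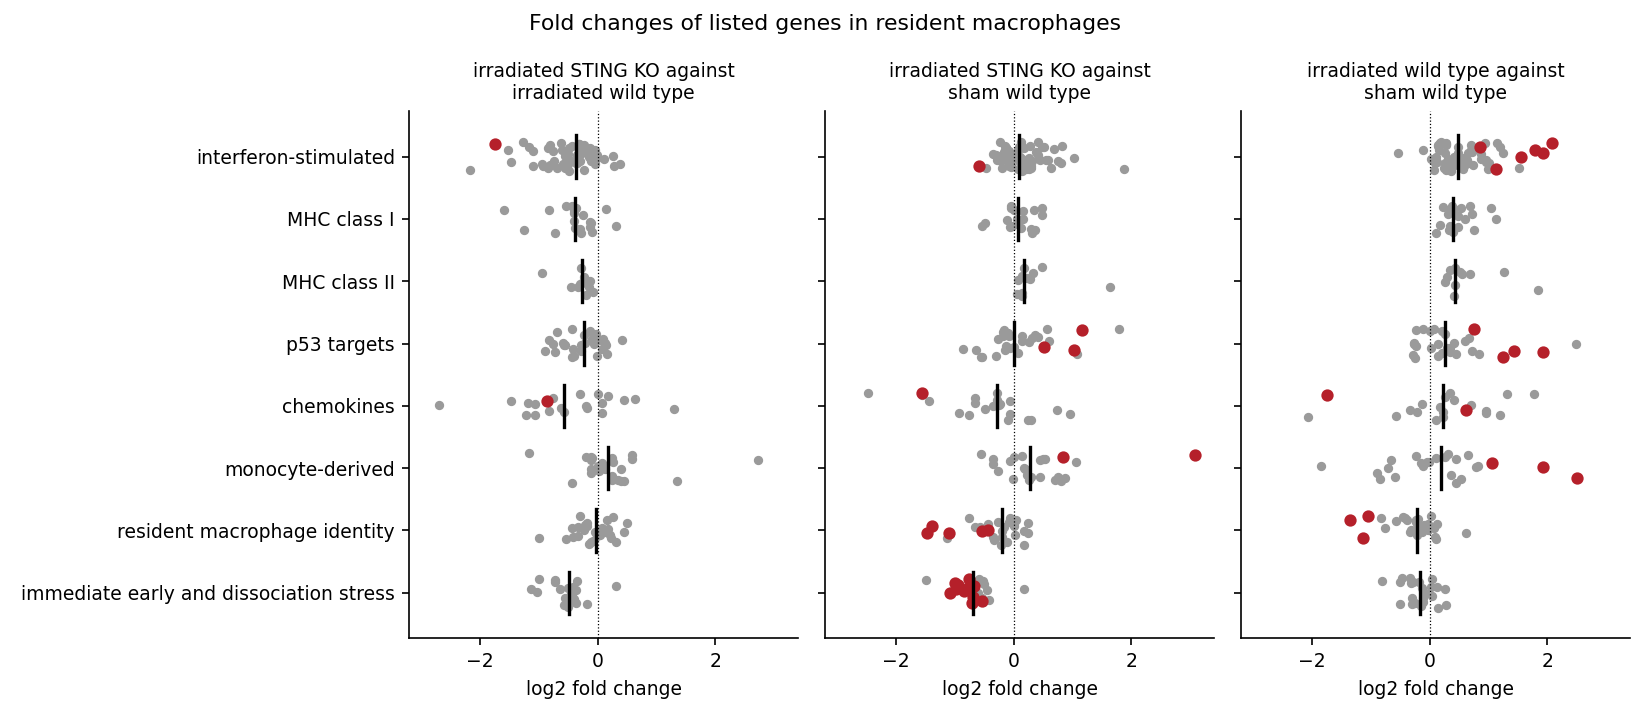
Log2 fold changes of listed genes (points, gate genes left out) in resident macrophages for the 3 comparisons; red points passed at an adjusted p under 0.05 and black lines are list medians. The interferon-stimulated median is -0.37, 0.09 and 0.48 from left to right, and 11 of 24 immediate early and dissociation genes are lower in irradiated STING KO than in sham.

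The third comparison set irradiated STING KO against sham wild-type cells, which differ in both treatment and genotype and share a group each with the comparisons above. Here 61 of 11902 genes were higher (0.513%) and 132 lower (1.11%), 1.62% in all, and 1874 had an unadjusted p under 0.05. Without the first irradiated STING KO library 15 were higher and 10 lower, and without the second 14 and 9, so the balance between higher and lower calls rested on both. Without the second sham library 24 were higher and 45 lower. Ccr2 was higher by 3.09 ± 0.21 and Phlda3 by 1.16 ± 0.15 (adjusted p = 0.00082 and 0.0115), and Cd163 was lower by a log2 fold change of -1.47 ± 0.09, Colec12 by -1.39 ± 0.12 and Vsig4 by -1.11 ± 0.13. Irf7 gave 0.04 ± 0.14 (adjusted p = 0.916), Bst2 0.38 ± 0.10 (adjusted p = 0.134) and Gdf15 0.61 ± 0.13 (adjusted p = 0.0643). Of 62 interferon-stimulated genes 0 rose and 1, Trim25, fell, with a median of 0.09. Of 29 p53 targets 3 rose, Phlda3, Bax and Zmat3, and of 30 resident-identity genes 5 fell, Selenop now among them.

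Of 24 immediate early and dissociation genes 11 were lower in that comparison and 0 higher, with a median of -0.69. They included Jun (1904 and 1806 CPM in irradiated STING KO against 2858 and 2773 CPM in sham), Fos (2108 and 2152 CPM against 3394 and 3411 CPM), Klf2 (1320 and 1231 CPM against 2583 and 2130 CPM) and Klf4. Irradiated wild type lay between or overlapped, at 2232 and 2372 CPM of Jun and 2454 and 3258 CPM of Fos. The metallothioneins Mt1 and Mt2, which bind zinc and copper, were lower by log2 fold changes of -1.04 ± 0.13 and -1.89 ± 0.26. The cardiomyocyte genes Myh6, Actc1 and Tnnt2 were lower too, and the part of heart muscle RNA in the result was not tested. Cx3cr1, the fractalkine receptor, was higher by 0.81 ± 0.11 and Csf1r, the growth factor receptor of macrophages, lower by a log2 fold change of -0.42 ± 0.07.

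To see where resident macrophages differed from other macrophages of the same hearts, the 4209 cells that passed the same gates with 0 UMIs of Lyve1, Folr2 and Timd4 were summed per library, and the difference between the 2 irradiation effects was tested with the library as a block. By edgeR's quasi-likelihood test the effects differed for 91 of 12058 genes (0.755%), 41 with the higher value in resident macrophages and 50 with the lower, and 1527 had an unadjusted p under 0.05. The count ran from 12 to 211 when a library was left out, the lowest without the second irradiated wild-type library and the highest without the first sham library. Marker-negative macrophages numbered 603 to 777 per library. Their median depth was 7948.5 and 7521 UMIs in irradiated STING KO, 6477 and 5522 in irradiated wild type, and 4109 and 4378.5 in sham. Cells with 0 UMIs of Lyve1, Folr2 and Timd4 may carry these transcripts undetected, more so at lower depth. The population comparison was not run on thinned cells, and the part of depth in it was not tested.

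On the log2 scale, Cd163 was lower after irradiation in both populations and less so in resident macrophages. Marker-negative cells had 20.3 and 14.4 CPM in irradiated STING KO, 13.7 and 23 CPM in irradiated wild type, and 94.6 and 90.6 CPM in sham, a log2 fold change of -2.31 between irradiated and sham wild type beside -1.06 in resident cells (difference 1.24 ± 0.17, adjusted p = 0.00805). Ccr2 was higher after irradiation in both, from a higher base in marker-negative cells, which had 730 and 891 CPM, 613 and 577 CPM, and 314 and 194 CPM. On the log2 scale the effect was larger in resident macrophages (2.50 beside 1.25, difference 1.22 ± 0.11, adjusted p = 0.000484), whereas the difference in CPM was larger in marker-negative cells. Ccn1, a matricellular protein, and Adam33, a membrane protease, were like Cd163 lower after irradiation in both populations and less so in resident macrophages. Their log2 fold changes were -1.28 beside -3.16 and -0.90 beside -2.05, with differences of 1.82 ± 0.20 and 1.16 ± 0.21. With a library left out the differences ran from 1.61 to 2.02 and from 0.86 to 1.45. Ccn1 was uneven in irradiated wild-type resident macrophages, at 14.7 and 60.8 CPM against 105 and 87 CPM in sham.

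**Figure D5:**
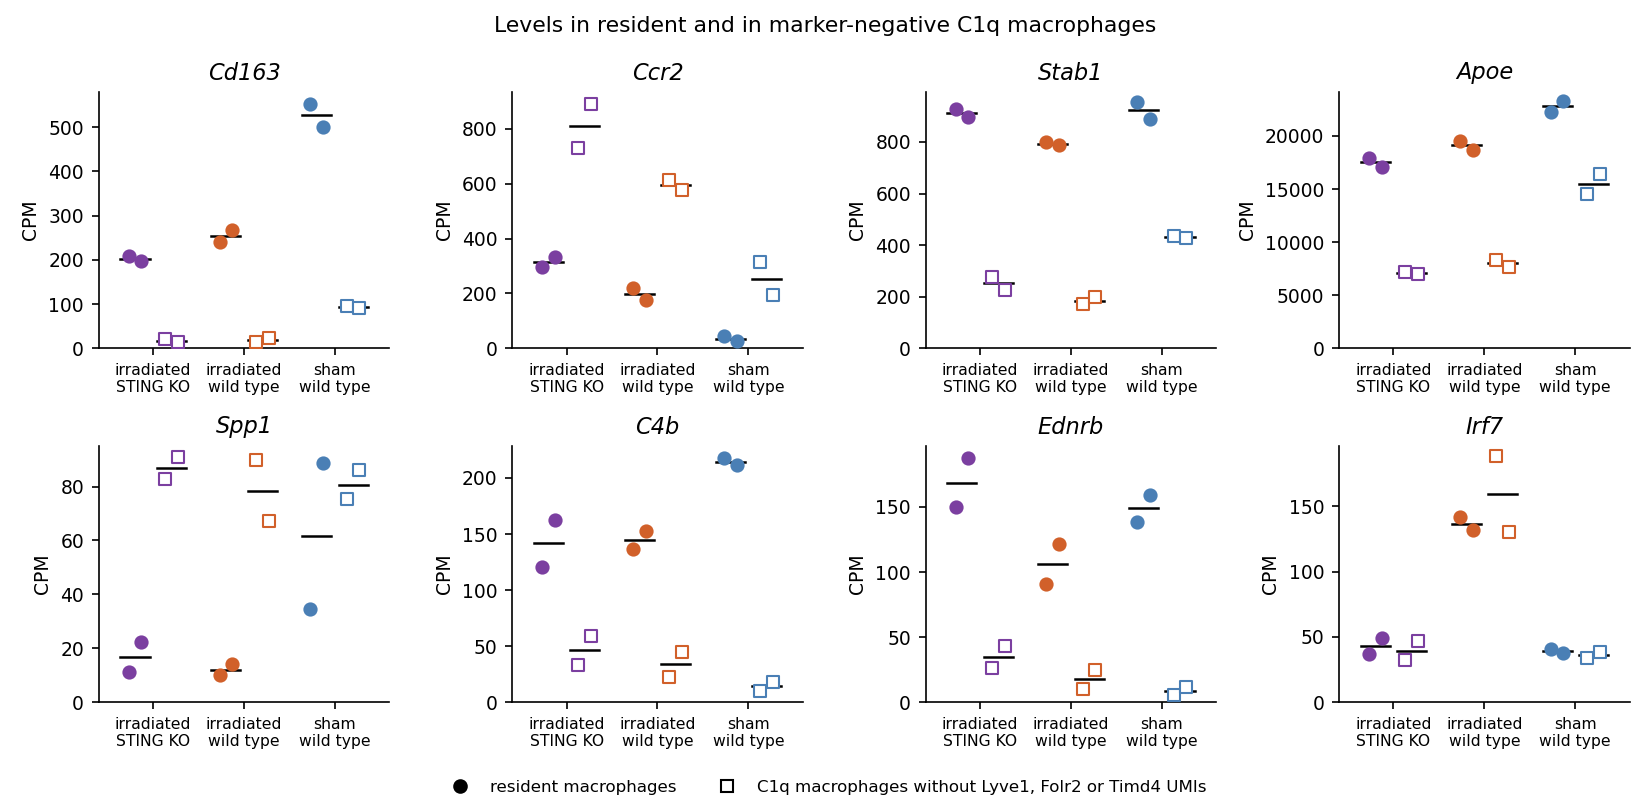
Levels in CPM in resident macrophages (filled circles) and in C1q macrophages without Lyve1, Folr2 or Timd4 UMIs (open squares) of each library; horizontal lines are means of 2 libraries and each panel starts at 0. Irf7 is high in irradiated wild type in both populations, whereas Cd163, Stab1 and Apoe have the larger log2 decrease after irradiation in marker-negative cells.

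A further 4 genes of resident macrophages, named after their values were seen, also had a positive difference, resident minus marker-negative. Stab1, a scavenger receptor, had 801 and 787 CPM in irradiated wild-type and 955 and 890 CPM in sham resident macrophages, beside 170 and 197 CPM and 437 and 427 CPM in marker-negative cells (difference 0.98 ± 0.10). Gas6, which bridges dead cells to the receptors Axl and Mertk, had 548 and 515 CPM against 560 and 527 CPM in resident macrophages and 58.4 and 68.1 CPM against 114 and 110 CPM in marker-negative cells (difference 0.75 ± 0.11). Apoe, a lipid carrier, and Maf, a transcription factor of resident macrophages, had differences of 0.66 ± 0.05 and 0.55 ± 0.08. Maf overlapped in resident macrophages, at 878 and 850 CPM in irradiated wild type against 925 and 717 CPM in sham. Its log2 fold change was 0.07 in resident macrophages beside -0.48 in marker-negative cells. By edgeR, adjusted p was 0.0015 for Stab1, 0.00805 for Gas6 and Maf, and 0.000139 for Apoe. Vsig4 and Colec12, resident-identity genes that fell, did not pass. Their differences were 0.05 ± 0.29 and -0.13 ± 0.47 (adjusted p = 0.961 and 0.945, edgeR). The log2 fold changes were -1.14 and -1.35 in resident macrophages beside -1.20 and -1.24 in marker-negative cells. Both genes were low in marker-negative cells, at most 8.72 and 9.22 CPM.

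In the other direction, the matrix protein Spp1 had 10.2 and 14 CPM in irradiated wild-type and 34.5 and 88.7 CPM in sham resident macrophages, beside 89.9 and 67.1 CPM and 75.2 and 86 CPM in marker-negative cells (difference -2.21 ± 0.40, adjusted p = 0.0258). C4b, a complement component, had 137 and 152 CPM against 218 and 211 CPM in resident macrophages, and 22.6 and 45.1 CPM against 9.81 and 18.4 CPM in marker-negative cells (difference -1.87 ± 0.31, adjusted p = 0.0159). Ednrb, the endothelin B receptor, and Gfra2, a receptor for neurturin, had differences of -1.57 ± 0.31 and -1.56 ± 0.26. The acute-phase gene Saa3 gave -3.69 ± 0.46, with single libraries between 0.595 and 176 CPM in marker-negative cells. With a library left out its difference ran from -7.48, without the second sham library, to -3.05, without the second irradiated wild-type library, where the call was lost. C4b lost its call without the same library, and Spp1, Ednrb and Gfra2 stayed called in 3 of 6 such fits. Igfbp5 gave the largest difference, 7.63 ± 1.09, from 167 CPM in the second irradiated wild-type library against at most 7.31 CPM in the resident macrophages of the others, and without that library the difference was 0.98. That library and the first sham library both held a lymphatic endothelial sum of 110 CPM. The first sham library had 7.13 CPM of Igfbp5 in resident macrophages. The part of lymphatic cells in the result was not tested.

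Irf7 and Phlda3 did not separate the populations. Marker-negative cells had 32.3 and 46.6 CPM of Irf7 in irradiated STING KO, 188 and 131 CPM in irradiated wild type, and 33.6 and 38.2 CPM in sham. The difference between the irradiation effects was -0.36 ± 0.16 for Irf7 and 0.24 ± 0.25 for Phlda3 (adjusted p = 0.398 and 0.751), and a p of this size does not show that the populations responded alike. For the effect of the knockout after irradiation, 0 of 12058 genes differed between resident and marker-negative macrophages by edgeR's adjusted p, 704 had an unadjusted p under 0.05, and without the filter on low counts 123 of 20180 were called.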

How the data were processed

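CD45+ cardiac cells were profiled with 10x Genomics 3′ chemistry in 6 libraries, 2 in each of 3 groups. The deposited files hold raw UMI counts per gene and barcode, which the authors made with Cell Ranger 5.0.0 on mm10, per the submitters' processing notes, which also name Seurat 3. No aligner settings or doublet step are given in the sources used here.

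Cells were gated on the deposited counts as the report describes, and member counts were summed per library. The sums were tested with edgeR 4.0.16 in R 4.3.3 (filterByExpr, TMM, quasi-likelihood F test, 3 residual degrees of freedom) in 1 fit over all 6 libraries, and p-values were adjusted by Benjamini-Hochberg over all genes tested. The population comparison was fitted to 12 sums with the library as a block. CPM values are counts divided by the summed counts of the same cells. Shares of cells, which the gates' own genes set, and values split by Timd4 are given without a test. Doublets were left in, and an alternative removed those marked by Scrublet in scanpy 1.11.5, at 0.8% per 1000 cells.

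Named genes were the 12 largest rises and 12 largest falls among called genes with a mean CPM of at least 20 and no overlap between the groups, 5 in each direction for irradiated STING KO against sham and for the interactions, and up to 4 called and 2 other members of each gene list. The members and lists were chosen with earlier results of these data known. The procedure was tested on simulated data for irradiated against sham wild type over 11691 genes: 53% of 100 genes changed by a log2 of 1 and 100% of 100 changed by a log2 of 2 were recovered, with 7 false calls. The changed genes were drawn from those with a mean above 20 CPM, and all genes were given the same spread. Recovery of lower or more variable genes was not measured. Same-numbered replicates deviated from their group means with correlations of -0.163 (irradiated STING KO and irradiated wild type), 0.139 (irradiated STING KO and sham) and -0.0314 (irradiated wild type and sham). With 2 libraries per group these values cannot show whether same-numbered libraries were handled together. The labels do not say, and the main fits used no pairing. Libraries held 31650962 to 59675213 UMIs. The alternatives were another normalization and tool (DESeq2 1.42.0), no filter on low counts, other gates, thinning cells to 4000 UMIs, and leaving out each library. Splits by Timd4 and by sex-linked transcripts were added after seeing the data. Thinning dropped the cells with fewer than 4000 UMIs, among them 471 of the 5055 resident macrophages. Some items are not reported here.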

Additional observations from a re-analysis of the deposited data

Results flagged for a closer look

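The effect of irradiation in wild-type hearts differed between resident and marker-negative macrophages for 91 genes, by the interaction term of edgeR's fit, and 10 of these were named by the rule. On the log2 scale, resident minus marker-negative, the difference was 7.63 for Igfbp5, 1.82 for Ccn1, 1.24 for Cd163, 1.22 for Ccr2 and 1.16 for Adam33. The difference was -3.69 for Saa3, -2.21 for Spp1, -1.87 for C4b, -1.57 for Ednrb and -1.56 for Gfra2. Of these 10 genes, Ccr2 stayed called in all 6 fits that left out a library, and 0 changed direction in them.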

How the results depend on the processing

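Of 64 genes called between irradiated and sham wild type, the number was 731 with no filter on low counts, 144 by DESeq2, 106 with the interferon gate dropped, 101 at 4000 UMIs per cell, 35 with only the 4 libraries compared, 28 in cells with Y-linked UMIs only, 25 in cells with Xist only, 9 in cells with a Timd4 UMI and 1 with the mitochondrial share held to 5%. Leaving out each library gave 14 (without the second sham library) to 37. Against the 15 genes between irradiated STING KO and irradiated wild type, the counts were 637 with no filter, 154 by DESeq2, 96 thinned, 27 in Xist-only cells, 26 with doublets removed and 2 at 5% mitochondrial share, and 6 to 44 with a library left out, the highest without the first irradiated wild-type library. With a block for the replicate number, whose meaning the labels do not give, 28 genes were called there, 71 between irradiated and sham wild type and 217 between irradiated STING KO and sham. For irradiated STING KO against sham, 193 became 1045 with no filter, 65 in cells with Timd4, 28 in cells with Y-linked UMIs only, 5 at 5% mitochondrial share, and 23 to 233 with a library left out. The 91 interaction genes became 433 with no filter, 57 against every cell under 3 marker UMIs, and 12 to 211 with a library left out. The interaction with genotype gave 123 with no filter, 2 with the interferon gate dropped, and 0 to 10 with a library left out. Between irradiated and sham wild type, the share of calls that rose was 59.4% and 47.9% with no filter. The log2 fold change reversed in cells with a Timd4 UMI for Ccr2 (-0.12), Gm36161 (-0.49) and Vsig4 (0.14) between irradiated and sham wild type and for Vsig4 (0.24) between irradiated STING KO and sham. It reversed for Emb (-0.17, irradiated against sham) at 5% mitochondrial share and for Ccl5 (0.44, irradiated STING KO against sham) with doublets removed. With each library left out, 10 of 33 named and called genes stayed called in all 6 fits between irradiated and sham wild type, 3 of 10 between the irradiated genotypes and 8 of 45 between irradiated STING KO and sham. The cause of these differences was not tested, beyond the fewer cells that the 5% limit leaves (92 to 199 per library). With 2 libraries in each group, no exact permutation test could reach a p under 0.333.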
